A study of Mus musculus with 36 samples.

Results

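The clustered histone genes were the 67 protein-coding genes whose symbols begin with Hist1h, Hist2h, Hist3h or Hist4h, out of 53421 annotated genes, of which 22012 were protein-coding. They were chosen by symbol and biotype alone, but the family was singled out because earlier results of these data had shown it to differ, so the counts of its members called in the siRNA and IL-1β comparisons are a description. The libraries came from a wild-type mouse fibroblast-like chondrocyte line, conditionally immortalised and cultured after the immortalising conditions were withdrawn. Cells received either a non-targeting siRNA pool (NT) or a pool of siRNAs against Ift88, an intraflagellar transport gene needed to build the primary cilium (IFT88siRNA), and were then given medium alone (0 h) or 10 ng/ml of the cytokine IL-1β for 1, 2, 4, 8 or 24 h. This gave 12 groups of 3 libraries, 36 in all, and every library came from transfected cells of the same line. The labels give 50 nM of siRNA and the study's methods a lower concentration. Neither says whether the 3 libraries of a group came from separate cultures, so the p-values measure only the spread between these libraries, which may be technical.

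Histones package DNA: pairs of H2A, H2B, H3 and H4 form the nucleosome core and the linker histone H1 binds where DNA enters and leaves it. Most clustered histone genes are transcribed mainly in S phase, to coat newly copied DNA, and their mRNAs usually end in a conserved stem-loop instead of a poly(A) tail. Some are also made as polyadenylated transcripts, mainly from genes that stay active in differentiated or resting cells. The libraries here were made from poly(A)-selected RNA, so the counts favour the polyadenylated part of the histone mRNA.

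The 67 members comprised 6 linker H1 genes, 18 H2A, 18 H2B, 12 H3 and 13 H4 genes. In the GENCODE annotation of GRCm38, 54 lie in the Hist1 cluster on chromosome 13 (21715763 to 23934851), 10 in Hist2 on chromosome 3 (96219865 to 96270132), 2 in Hist3 on chromosome 11 and 1 in Hist4 on chromosome 6, and 63 of the 67 consist of 1 exon. The 16 letters of the conserved histone stem-loop pattern, searched on the transcript strand, were found in the annotated 3′ UTRs of 46 members. They began 21 to 58 bases after the stop codon, and every coding transcript of a member was searched. Other protein-coding genes were searched in their longest coding transcript only, in the 150 bases after the stop codon, where that many were annotated. Of these genes, 47 of 18716 (0.251%) held the letters, in a search unlike that of the members. The other 21 members held no such match, and 15 of those were annotated with fewer than 10 bases after the stop codon, so little could be searched. The stem-loops took 8 sequences. Examples of 2 of them, from genes described later, are shown because the stem-loop is the element that takes the place of the tail, with the 16 bases of the pattern in capitals and up to 5 flanking bases in lower case:
Hist1h1c (linker H1, chr13:23739512-23739527, + strand): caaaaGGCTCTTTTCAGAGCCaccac
Hist1h1d (linker H1, chr13:23555787-23555802, + strand): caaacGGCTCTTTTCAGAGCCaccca
Hist1h1e (linker H1, chr13:23621782-23621797, - strand): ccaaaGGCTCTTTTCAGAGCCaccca
Hist1h2be (H2B, chr13:23585531-23585546, - strand): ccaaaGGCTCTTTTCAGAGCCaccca
Hist1h4i (H4, chr13:22040966-22040981, - strand): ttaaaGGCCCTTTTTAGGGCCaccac
Hist2h4 (H4, chr3:96262939-96262954, - strand): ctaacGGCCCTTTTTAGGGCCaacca
The capitals of the 4 H1 and H2B genes were identical, and that sequence was carried by 26 members: 3 of H1, 10 of H2A, 8 of H2B and 5 of H3. The H4 genes shown carried a stem with other paired letters, and every H4 stem-loop found was one that no member of another class carried. In 23 of the 46 genes the annotated transcript ended within 100 bases of the stem-loop, and in 23 it ran on, by up to 4884 bases in Hist1h1d. AATAAA, the usual signal for adding a poly(A) tail, stood in the last 40 bases of 13 of the 67 transcripts.

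RefSeq promoters (GRCm38; 250 bases before to 50 after the start) were matched for 62 members. CCAAT, on either strand, was in 53 of them (85.5%), against 37.4% of all RefSeq promoters of the same length, and TATAAA, on the gene's strand, was in 30 (48.4%) against 8.32%. These are letter matches and do not show that a factor binds.

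The knockdown was checked first. At 0 h, Ift88 stood at 9.16, 8.65 and 9.35 CPM (read counts relative to the scaled size of the library) in the NT libraries and at 2.59, 2.88 and 2.82 CPM in the IFT88siRNA libraries. At every time point all 3 IFT88siRNA libraries were below all 3 NT libraries, and the IFT88siRNA mean was 23.0 to 35.97% of the NT mean. The fall passed edgeR's quasi-likelihood test at every time, with adjusted p between 3.26e-10 at 0 h and 0.00189 at 8 h, whereas limma on log2(TPM + 1) did not call it at 1, 4 and 8 h.

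The libraries held 19337022 to 38304127 counts (mean 22581304 in NT and 26231813 in IFT88siRNA), of which the members took 0.00798 to 0.0297%, or 1873 to 8566 counts. Of chondrocyte markers, Col2a1 (type II collagen) stood at 19.8 ± 1.92 CPM and Sox9 at 22.0 ± 0.98 CPM in NT cells at 0 h (SD, n = 3), whereas Acan (aggrecan) was at 0.383 ± 0.035 CPM. The 8 chondrocyte markers summed to 43.1 to 153.5 CPM and the 8 fibroblast markers to 2779 to 8402 CPM. In IFT88siRNA cells at 0 h, Col2a1 was lower, at 11.6 ± 0.66 CPM, and Sox9 higher, at 33.7 ± 1.79 CPM. The 8 macrophage and leukocyte markers summed to 5.96 to 9.62 CPM in NT and 5.52 to 8.68 CPM in IFT88siRNA libraries, with Adgre1 at 0 in every NT library at 0 h. The fibroblast marker Col3a1 and Lyz2, a macrophage lysozyme, were called higher in IFT88siRNA cells at 0 h, neither of them by limma on TPM; Lyz2 stood at 2.11 ± 0.36 CPM against 1.35 ± 0.33 CPM in NT. The Lyz2 call was lost with DESeq2 and without replicate 1, 2 or 3, and the 2 other macrophage markers tested at 0 h, Cd68 and Fcgr3, differed by -0.29 ± 0.10 and -0.31 ± 0.26 (neither called). The 4 endothelial markers summed to 0.79 to 2.59 CPM and the 4 epithelial markers to 0.63 to 20.6 CPM over all libraries. The part of these markers in the histone results was not tested. A set of 8 RNAs that carry no poly(A) tail summed to 0.40 to 1.51 CPM in NT and 0.34 to 1.26 CPM in IFT88siRNA libraries. A few reads of tailless RNA were thus counted, and their part in the members with few reads was not tested.

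Reads were counted for 62 members. The other 5 (Hist2h2aa1, Hist2h2aa2, Hist2h2bb, Hist2h3b and Hist2h3c1) had 0 counts in every library, where 3 counts would correspond to 0.0783 to 0.155 CPM, a limit that covers counting error only. None of the 75-base windows of these 5 genes was unique to the gene, and reads that matched several places were not counted. Salmon, which shares such reads out between genes, gave the same 5 genes 0.0669 to 14.7 TPM (transcript abundance per length, relative to the library) on average, so their zero counts do not show that they were silent. Over all members, 31 of 67 had fewer than 50% unique windows, and their counts are uncertain for the same reason. Averaged over the 36 libraries, 19 members reached 1 CPM and 43 were detected below it.

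Per length, 3 genes stood above the rest of the family. Hist1h1c, which encodes linker histone H1.2, had a mean of 102 TPM, Hist1h2bc (an H2B gene) 83.7 TPM and Hist1h4i (an H4 gene) 53.3 TPM, and the fourth, Hist1h4k, had 22.0 TPM. In counts the family was more uneven still, and Hist1h1c and Hist1h2bc together took 60.8% of the summed CPM. By class, H2B genes took 28.8% of the summed TPM, H1 25.0%, H4 22.2%, H2A 13.1% and H3 10.8%.

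The first question was whether depletion of IFT88 changed the histone mRNAs before and during IL-1β. At 0 h, 7 of the 35 members that passed the filter on low counts were lower in IFT88siRNA than in NT by edgeR (adjusted p under 0.05 and over 1.5-fold), against 1.56% of all genes tested. At 1 h, 10 of 25 members were lower, against 2.47% of all genes, at 2 h 2 of 25, against 0.462%, and at 4 h 2 of 23, against 0.399%. At 8 h and at 24 h none of 31 was called by edgeR, against 0.613% and 0.598% of all genes lower, and none of the 17 and 18 with an adjusted p by DESeq2, against 0.687% and 0.435%. At an unadjusted p under 0.05 by edgeR, 11 members were lower at 8 h and 3 at 24 h, against 10.9% and 12.3% of all genes, and none was higher at either time, against 10.1% and 9.89%. No member was called higher by edgeR at any time, against 0.674% of all genes at 0 h, 0.182% at 1 h, 0.0339% at 2 h, 0.0338% at 4 h, 0.0791% at 8 h and 0.552% at 24 h. The filter asked for enough reads in 3 libraries only. A member with few reads could therefore pass through its NT libraries alone, and for such a member a lower value in IFT88siRNA is favoured. DESeq2 gave no adjusted p to some members, among them 5 of edgeR's calls: Hist1h4c at 0 h, Hist1h3i and Hist1h4m at 1 h, and Hist1h1d and Hist1h2bg at 4 h. Of the members to which it gave one, it called 6 of 21 lower at 0 h, 8 of 17 at 1 h and 3 of 17 at 2 h, against 0.79, 1.55 and 0.492% of all genes, and these included every other member that edgeR called there. At 4 h it gave an adjusted p to only 5 members and called none, against 0.297%. Without replicate 1 in every group, edgeR called 6 members at 1 h and 0 at both 2 and 4 h, whereas without replicate 2 it called 6 at 2 h and 4 at 4 h. Without replicate 3 it called 3 at 8 h, all lower. At 24 h it called 1 member higher without replicate 1 (Hist1h4h) and 1 lower without replicate 3 (Hist1h2ac), both named after their values were seen. The shares of all genes called without a replicate are not given, so these counts do not show whether calls changed among all genes. In bulk RNA, fewer cells expressing a histone gene and less of its mRNA per cell cannot be told apart.

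The shift was broader than the calls. The median log2 difference of the members tested was -0.38 at 0 h, -0.77 at 1 h, -0.59 at 2 h, -0.60 at 4 h, -0.33 at 8 h and -0.19 at 24 h, while the median of all genes tested lay between -0.0029 and 0.0037. All 25 members tested were below 0 at 1 h, against 49.9% of all genes, and 19 of 31 at 24 h, against 50.4%. A member that passed the filter through its NT libraries alone is favoured to lie below 0, in these medians and counts alike. In the fit of all 36 libraries, with its own filter, 34 of 37 members were below 0 at 1 h and 3 above. There, 50.4% of all genes were below 0. All 3 IFT88siRNA libraries lay below all 3 NT libraries for 16 members at 0 h (17.4% of all genes), 17 at 1 h (17.1%), 17 at 2 h (11%), 14 at 4 h (10.4%), 12 at 8 h (10.7%) and 8 at 24 h (13.6%). No member had its IFT88siRNA libraries all above the NT ones at any time, against 17.9, 19.1, 11.1, 11.6, 14 and 13% of all genes at the 6 times.

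**Figure D1:**
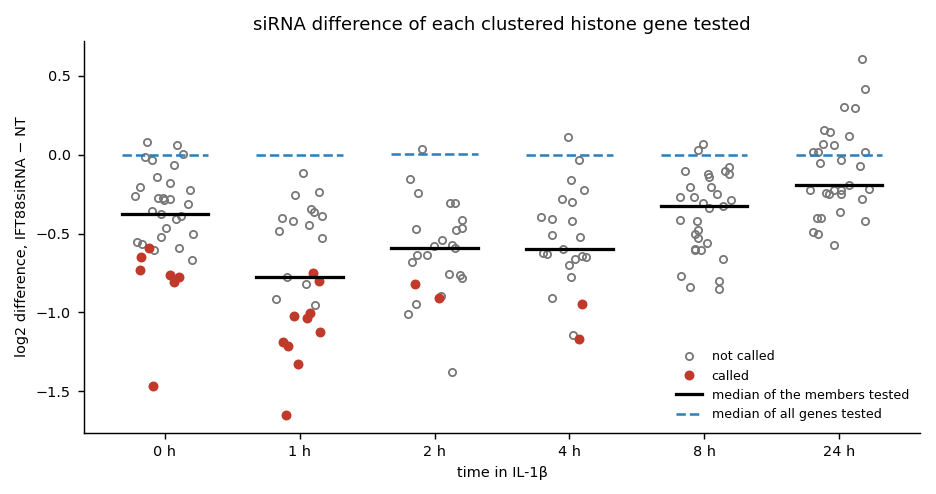
Each point is the log2 difference, IFT88siRNA minus NT, of 1 clustered histone gene that passed the filter at that time in IL-1β (horizontal axis, hours, evenly spaced); filled red points passed edgeR's test, black bars are medians of the members and dashed blue bars medians of all genes tested. The members' median was lowest at 1 h (-0.77) and the filled points lie at 0, 1, 2 and 4 h only, all below 0.

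The linker H1 genes carried the most calls for their number at 0 and 1 h. Of the 5 tested, 4 were lower at 0 h and 4 at 1 h, against 1.56% and 2.47% of all genes. At 2 and 4 h only 1 of the 5 was called, against 0.462% and 0.399%. The H3 genes were close at 1 h, with 3 of 5 called and a median difference of -1.03, the same as for H1. No test was made between classes. Hist1h1a encodes H1.1 and stood at 5.79, 7.005 and 6.21 CPM in NT and at 3.99, 3.34 and 4.13 CPM in IFT88siRNA cells at 0 h, so the groups did not overlap (log2 difference -0.73 ± 0.12 SE, edgeR adjusted p = 0.000133). At 1 h it stood at 3.52, 3.34 and 4.03 CPM in NT and at 2.02, 1.72 and 1.604 CPM in IFT88siRNA cells (-1.03 ± 0.17, edgeR adjusted p = 0.000535), again without overlap.

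Hist1h1d, the gene of H1.3, was the member called at the most times (0, 1, 2 and 4 h). Its NT libraries at 0 h stood at 8.28, 7.83 and 8.64 CPM and its IFT88siRNA libraries at 6.13, 3.797 and 4.62 CPM (-0.76 ± 0.13, edgeR adjusted p = 0.000167). At 4 h, the NT libraries were at 5.15, 3.395 and 5.47 CPM and the IFT88siRNA libraries at 1.48, 2.27 and 3.404 CPM (-0.95 ± 0.24, edgeR adjusted p = 0.0406), and there the highest IFT88siRNA library reached the lowest NT one. At 24 h the difference was -0.25 ± 0.12 (edgeR adjusted p = 0.227), which did not pass.

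Hist1h1e, the gene of H1.4, showed its largest siRNA difference at 1 h, when NT libraries stood at 3.15, 2.65 and 4.18 CPM and IFT88siRNA libraries at 1.56, 1.27 and 1.56 CPM (-1.19 ± 0.20, edgeR adjusted p = 0.00078). Hist1h1b (H1.5) was lower at the same times, by -0.59 ± 0.13 at 0 h (edgeR adjusted p = 0.00249) and -1.21 ± 0.21 at 1 h (edgeR adjusted p = 0.000829). The capital letters shown above for Hist1h1d and Hist1h1e are also those of Hist1h1c, described next.

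Hist1h1c, the most abundant member, did not differ detectably at 0 h: its NT libraries stood at 116.6, 113.2 and 118.8 CPM and its IFT88siRNA libraries at 117.0, 117.9 and 115.1 CPM (0.01 ± 0.04, edgeR adjusted p = 0.951). At 1 h it stood at 107.2, 96.8 and 99.7 CPM in NT and at 75.02, 72.7 and 89.1 CPM in IFT88siRNA cells, without overlap. The difference was -0.37 ± 0.06 (edgeR adjusted p = 0.000829), which is short of 1.5-fold. By 24 h the groups overlapped again, at 106.4, 94.3 and 88.0 CPM in NT and 101.6, 106.9 and 106.3 CPM in IFT88siRNA cells.

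**Figure D2:**
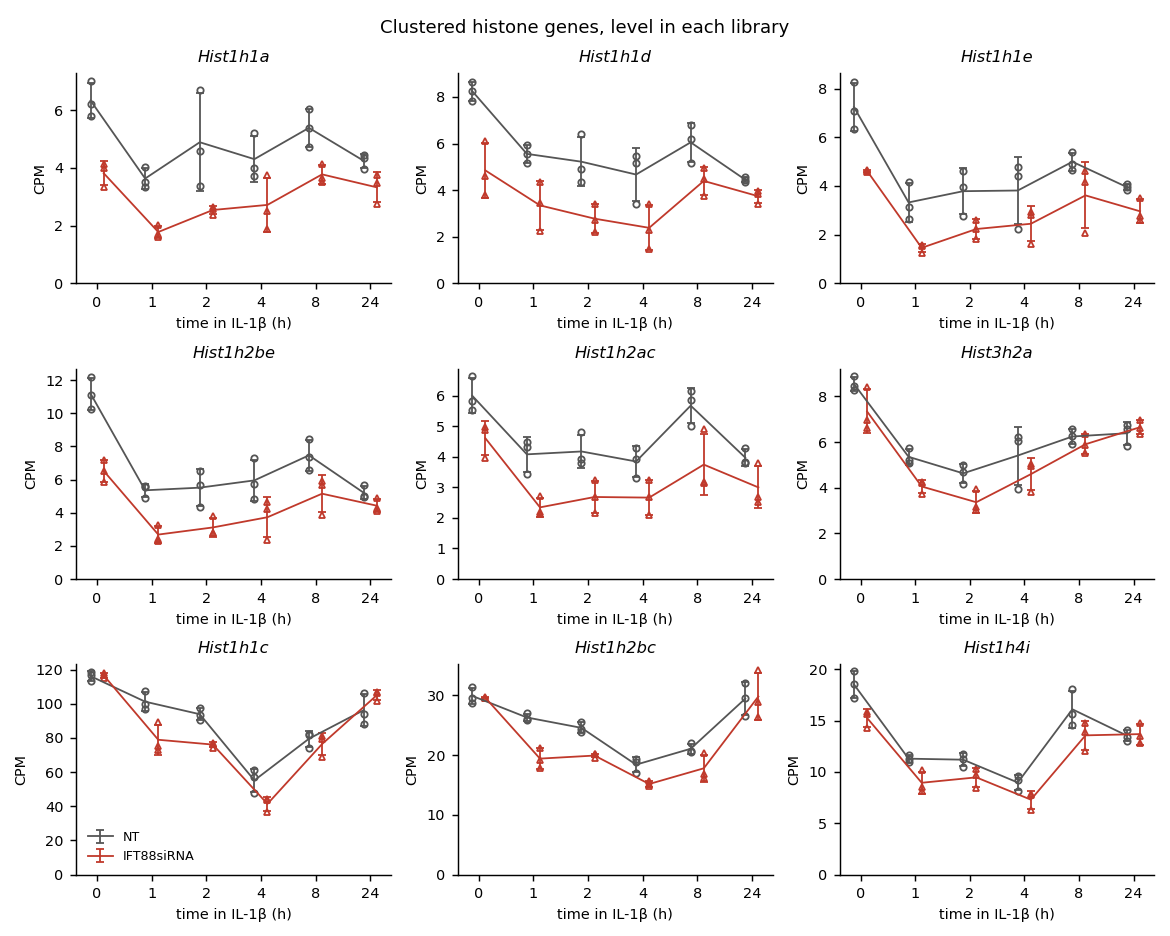
CPM (vertical axes, from 0) of 9 clustered histone genes against time in IL-1β (hours, evenly spaced); points are libraries, lines join group means and bars are the SD of 3 libraries, with NT in grey circles and IFT88siRNA in red triangles. For Hist1h1a the 3 IFT88siRNA libraries sit below the 3 NT libraries at 0 and 1 h, whereas for Hist1h1c and Hist1h2bc the groups start together at 0 h and separate at 1 h.

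Among the H2B genes, Hist1h2be had the smallest p at 0 h. Its NT libraries stood at 10.3, 11.1 and 12.2 CPM and its IFT88siRNA libraries at 7.19, 5.87 and 6.53 CPM, without overlap (-0.78 ± 0.10, edgeR adjusted p = 5.19e-06). It was also called at 1 h (-1.003 ± 0.15, edgeR adjusted p = 0.000285) and at 2 h (-0.82 ± 0.19, edgeR adjusted p = 0.0393). Its annotated locus (chr13:23583670-23621124, - strand) overlaps that of Hist1h1e on the same strand, and reads that fell on both genes were not counted, so the 2 genes' values are not fully separate. Hist1h2bg, called at 4 h only (-1.17 ± 0.31, edgeR adjusted p = 0.0464), fell there to 0.556, 0.692 and 1.01 CPM against 2.26, 1.15 and 1.81 CPM in NT. Hist1h2bc repeated the pattern of Hist1h1c, with 29.6, 28.7 and 31.4 CPM in NT and 29.6, 29.5 and 29.6 CPM in IFT88siRNA cells at 0 h (-0.02 ± 0.06). At 1 h it stood at 27.0, 26.1 and 25.8 CPM in NT against 19.2, 17.8 and 21.2 CPM (-0.45 ± 0.07, edgeR adjusted p = 0.000432), again below 1.5-fold. Hist2h2be, an H2B gene of the Hist2 cluster, differed by -0.14 ± 0.10 at 0 h and -0.11 ± 0.14 at 1 h, and neither passed.

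Of the H2A genes, only 3 passed the filter at 0 h. Hist1h2ac was called at 1 h (-0.80 ± 0.16, edgeR adjusted p = 0.00292), with NT at 4.48, 3.43 and 4.33 CPM and IFT88siRNA at 2.19, 2.13 and 2.71 CPM. Hist3h2a, the most abundant H2A gene per length among those counted, differed by -0.22 ± 0.10 at 0 h and -0.40 ± 0.12 at 1 h (edgeR adjusted p = 0.128 and 0.0303), under 1.5-fold at both times.

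Of the H3 genes, Hist1h3d, Hist1h3i and Hist2h3c2 were called at 1 h. Hist2h3c2 stood at 2.83, 2.73 and 2.66 CPM in NT and at 0.926, 1.46 and 1.64 CPM in IFT88siRNA cells (-1.03 ± 0.20, edgeR adjusted p = 0.00245), without overlap, but only 37.4% of its windows were unique. Hist1h3d differed by -1.13 ± 0.27 (edgeR adjusted p = 0.00797) and Hist1h3i, at 3 to 18 counts a library, by -1.33 ± 0.40 (edgeR adjusted p = 0.0279).

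Of the H4 genes, Hist2h4 and Hist1h4c were called at 0 h and Hist1h4m at 1 h. Hist2h4 stood at 1.73, 2.14 and 1.86 CPM in NT and at 1.36, 0.879 and 1.02 CPM in IFT88siRNA cells (-0.81 ± 0.21, edgeR adjusted p = 0.00749). Hist1h4c rested on few reads, at 18, 15 and 15 counts in NT and 9, 7 and 5 in IFT88siRNA libraries (-1.46 ± 0.35, edgeR adjusted p = 0.00488). Hist1h4m had 10, 11 and 16 counts in NT and 5, 3 and 6 in IFT88siRNA libraries at 1 h (-1.65 ± 0.42, edgeR adjusted p = 0.0121), and only 10.98% of its windows were unique. With these counts, Hist1h4c and Hist1h4m may have passed the filter through their NT libraries alone, which favours a call lower. Hist1h4i, the H4 gene with the most reads, was lower by less than 1.5-fold, at -0.28 ± 0.07 at 0 h (edgeR adjusted p = 0.00869) and -0.34 ± 0.10 at 1 h (edgeR adjusted p = 0.0207).

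In all, 13 members were called at 1 time or more and 5 at 2 times or more. The share of all genes called at as many times was not taken, so these 2 counts only sum up the genes named. By annotated 3′ end, 6 of the 13 tested genes whose transcript continued past the stem-loop were called at 1 h, 1 of the 6 that ended near it and 3 of the 6 with no stem-loop letters, and the median differences were -0.77, -0.72 and -0.74; no test was made between these sets. Tested over all 6 time points together, 18 of 37 members were called lower in IFT88siRNA cells and none higher, against 3.81% of all genes called lower and 1.38% called higher, and DESeq2 called 16 of 33 lower, against 3.38%. Without replicate 1 the edgeR count was 8 of 36, without replicate 2 it was 10 of 37 and without replicate 3 it was 16. The shares of all genes called in these fits are not given, so whether calls fell among all genes is not shown. The 18 included Hist4h4, which had only 0 to 14 counts a library and no adjusted p by DESeq2.

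The second question was how IL-1β changed the histone mRNAs within each siRNA group. In NT cells, 25 of 35 members changed over the time course by edgeR, all with their largest change a fall, against 26.3% of all genes with a fall and 23.6% with a rise, and DESeq2 called 24, against 24.5% with a fall. In IFT88siRNA cells, 26 of 33 did, again all falls, against 25.5% with a fall and 22.7% with a rise, and DESeq2 called 25, against 23.9% with a fall. The times of a course share their 0 h libraries. Here too a member with few reads could pass the filter through 3 libraries alone, and where these were its 0 h libraries a fall is favoured. With the 6 libraries of a time point, 35 members passed at 0 h, 25 at 1 h, 25 at 2 h, 23 at 4 h and 31 at both 8 and 24 h. In NT cells the members called lower than at 0 h numbered 16 at 1 h (9.45% of all genes), 17 at 2 h (14.3%), 22 at 4 h (12.4%), 4 at 8 h (7.87%) and 15 at 24 h (9.71%). In IFT88siRNA cells they numbered 22 at 1 h (8.25%), 20 at 2 h (13.2%), 23 at 4 h (13.3%), 4 at 8 h (7.11%) and 6 at 24 h (7.87%). No member was called higher at any time in either course, whereas of all genes 9.22, 13, 16.3, 11.8 and 6.61% were called higher at these 5 times in NT, and 6.82, 12.4, 16, 10.5 and 6.36% in IFT88siRNA cells. Without regard to calls, 8 of 35 members in NT and 10 of 33 in IFT88siRNA cells lay above their 0 h level at 8 h, and 27 and 23 lay below it. Of all genes tested, 51.1% in NT and 50.3% in IFT88siRNA cells lay below their 0 h level at 8 h.

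Hist1h1c reached its lowest level at 4 h in both courses. In NT cells it stood at 56.8, 47.6 and 61.0 CPM at 4 h, below every NT library at 0 h (-1.07 ± 0.07, edgeR adjusted p = 2.73e-12), and in IFT88siRNA cells at 36.4, 44.3 and 43.4 CPM (-1.49 ± 0.07, edgeR adjusted p = 8.14e-15). Hist1h4i was also lowest at 4 h, at 9.17, 8.12 and 9.62 CPM in NT against 17.2, 18.5 and 19.8 CPM at 0 h (-1.04 ± 0.09, edgeR adjusted p = 2.13e-10). Hist2h2be was lowest at 4 h too, by -1.23 ± 0.14 in NT (edgeR adjusted p = 3.36e-08) and -1.48 ± 0.14 in IFT88siRNA cells (edgeR adjusted p = 3.02e-09).

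The times of the lowest level differed between members. Hist1h1e was lowest at 1 h in both courses, by -1.13 ± 0.20 in NT (edgeR adjusted p = 3.66e-05) and -1.66 ± 0.24 in IFT88siRNA cells (edgeR adjusted p = 4.61e-06). Hist1h2be changed by -1.07 ± 0.14 and -1.29 ± 0.20 at 1 h (edgeR adjusted p = 5.43e-07 and 8.84e-06), its lowest level in IFT88siRNA cells, whereas in NT cells its mean was lowest at 24 h. Hist3h2a was lowest at 2 h in both courses (-0.88 ± 0.13 and -1.12 ± 0.13, edgeR adjusted p = 1.6e-06 and 7.66e-08). Of the 19 members at 1 CPM or more, the lowest mean in NT was at 1 h for 4, 2 h for 3, 4 h for 9 and 24 h for 3, and in IFT88siRNA cells at 1 h for 6, 2 h for 4 and 4 h for 9.

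The largest falls in NT cells by the fitted change were those of Hist1h4c (-2.19 ± 0.44 at 1 h, edgeR adjusted p = 0.000175), Hist1h4m (-2.01 ± 0.41 at 4 h, edgeR adjusted p = 0.000146), Hist1h4n (-1.68 ± 0.40 at 4 h, edgeR adjusted p = 0.000843) and Hist3h2ba (-1.56 ± 0.37 at 8 h, edgeR adjusted p = 0.001). All 4 had few reads, no more than 22 counts in any NT library at 0 h, and their sizes are correspondingly loose. Genes with so few reads can pass the filter through their 0 h libraries alone, which favours a fall.

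**Figure D3:**
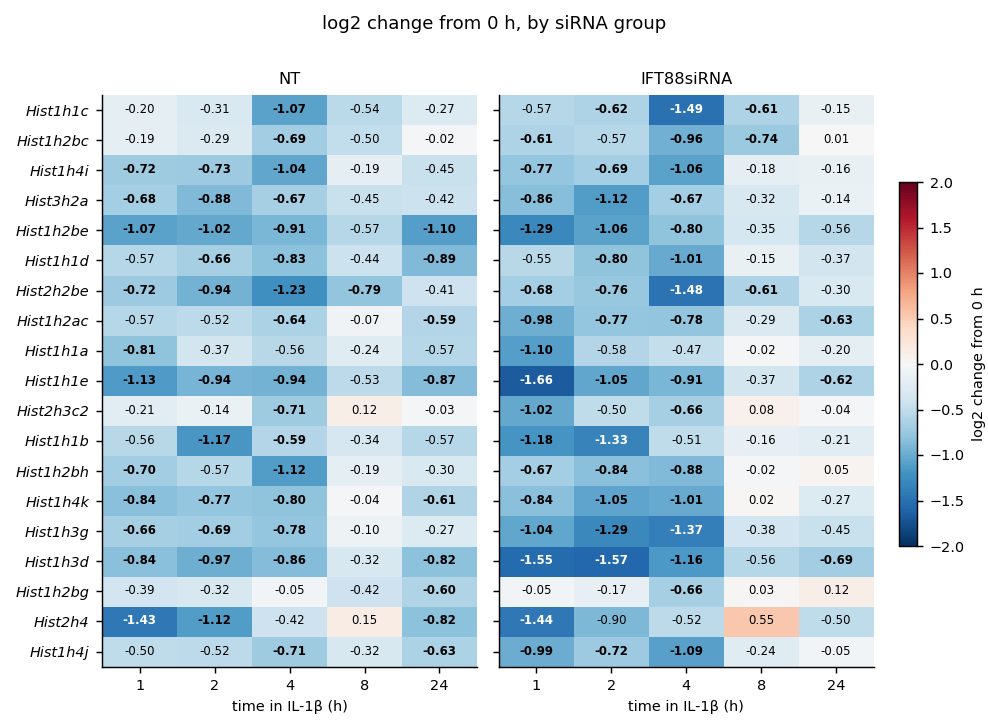
Log2 change from 0 h, in colour and figures, of the 19 clustered histone genes at 1 CPM or more, at each time in IL-1β (columns, hours) in NT and IFT88siRNA cells; bold values passed edgeR's test and 1.5-fold. The bold values are all falls, most of them at 1, 2 and 4 h, and Hist1h1c falls furthest at 4 h in both groups (-1.07 and -1.49).

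The sum over all members showed the same course. In NT cells it was 259.0, 255.4 and 266.3 CPM at 0 h and 147.3, 117.5 and 150.7 CPM at 4 h, which was 53.2% of the 0 h mean. In IFT88siRNA cells it was 232.9, 228.7 and 233.2 CPM at 0 h and 86.8, 104.7 and 112.1 CPM at 4 h, or 43.7%. The IFT88siRNA sum was 89.0% of the NT sum at 0 h, 72.6% at 1 h, 76.2% at 2 h, 73.0% at 4 h, 86.3% at 8 h and 102% at 24 h. At 0, 1, 2, 4 and 8 h all 3 IFT88siRNA sums were below all 3 NT sums, and at 24 h they overlapped. Because Hist1h1c and Hist1h2bc dominate this sum, it was also taken without them, and the IFT88siRNA share was then 74.8, 64.3, 67.8, 68.7, 78.3 and 92.2% at the 6 times.

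**Figure D4:**
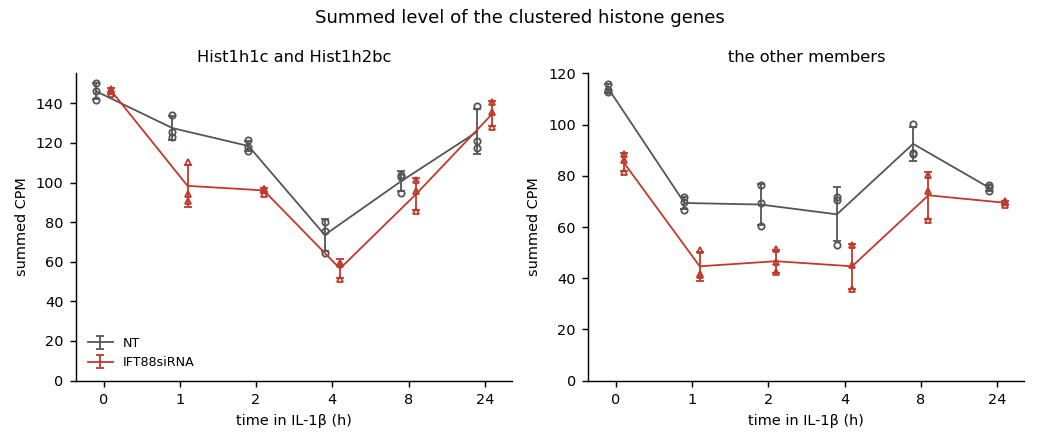
Summed CPM (vertical axes, from 0) of Hist1h1c and Hist1h2bc (left) and of all other clustered histone genes (right) against time in IL-1β (hours, evenly spaced); points are libraries, lines join means, bars are the SD of 3 libraries. On the left the 2 siRNA groups coincide at 0 h (IFT88siRNA at 100.1% of NT), and on the right IFT88siRNA cells start at 74.8% of NT.

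Whether IFT88 depletion altered the response to IL-1β itself was tested as the interaction of siRNA and time. No member of 37 passed the test at 1.5-fold by edgeR, against 0.85% of all genes with a largest difference below 0 and 0.353% above, and none of the 16 with an adjusted p by DESeq2, against 1.16% and 0.452%. At an unadjusted p under 0.05 by edgeR, 4 had a largest difference below 0 and 2 above, against 9.14% and 7.67% of all genes. With no fold threshold, edgeR called 2 members, Hist1h1c and Hist1h2bc, both below 0, against 3.34%. The comparisons share their 0 h libraries, and each member's own values in the 2 courses are those given above.

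Genes of related function were read beside the members, from lists chosen with earlier results of these data known. The replication-independent histone genes, which supply histones outside S phase, comprised 11 genes, and the list of factors that transcribe histone genes or process their 3′ ends held 15. There were also 12 histone chaperones, 32 S phase genes and 18 mitosis genes. All of these genes passed the filter at every time, and none was called by edgeR at over 1.5-fold in either direction between IFT88siRNA and NT at any time point. At that threshold 1.56% of all genes were called lower and 0.674% higher at 0 h, and 2.47% and 0.182% at 1 h. Lists this short would hold few calls at those shares, so the absence of calls says little. With no fold threshold, edgeR called 9.7% of all tests over the 6 time points. It called 19 of 66 (28.8%) among the replication-independent histone genes, 18 of them higher in IFT88siRNA cells, and 3 of 90 (3.33%) among the factors. It called 8 of 72 (11.1%) among the chaperones, 17 of 192 (8.85%, 14 of them higher) among the S phase genes and 6 of 108 (5.56%, all lower) among the mitosis genes. The clustered histone genes had 30 of 170 (17.6%), all lower. The lists' median differences at 0 h were 0.23, -0.02, 0.05, 0.05 and -0.0041 in that order, and at 1 h 0.05, 0.01, 0.07, 0.06 and -0.06.

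H2afz, the gene of the variant H2A.Z, differed by 0.04 ± 0.04 at 0 h and 0.05 ± 0.04 at 1 h. H3f3a and H3f3b encode the variant H3.3; H3f3a was higher in IFT88siRNA cells by 0.26 ± 0.04 at 0 h (edgeR adjusted p = 0.000236), under 1.5-fold, and H3f3b stood at 940 ± 33.3 CPM in NT and 905 ± 42.2 CPM in IFT88siRNA cells. Slbp encodes the protein that binds the stem-loop, and it stood at 224 ± 7.35 CPM in NT and 239 ± 9.04 CPM in IFT88siRNA cells at 0 h (0.09 ± 0.04, edgeR adjusted p = 0.141), and was higher at 1 h by 0.17 ± 0.04 (edgeR adjusted p = 0.00541), under 1.5-fold.

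**Figure D5:**
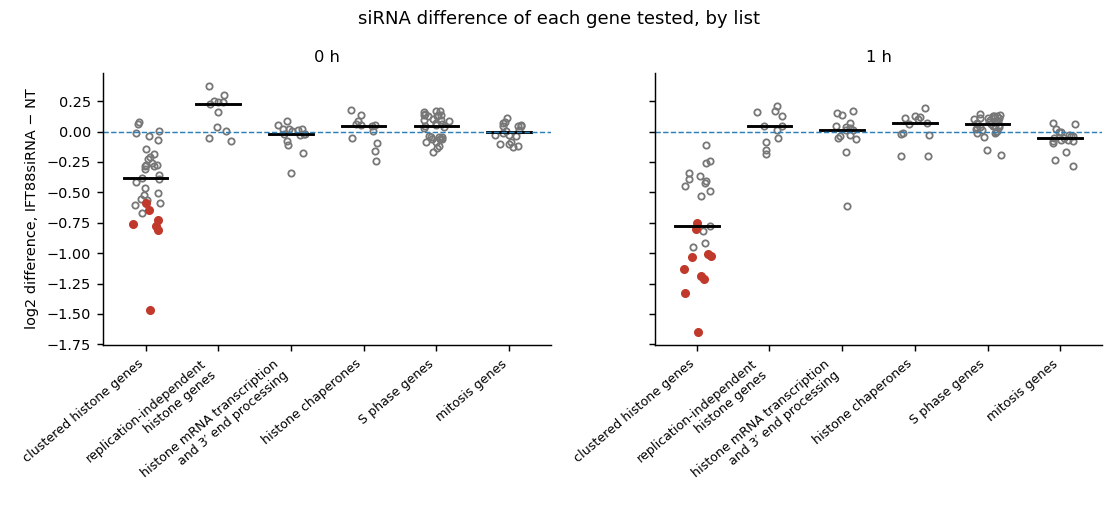
Log2 difference, IFT88siRNA minus NT, of each gene tested in 6 lists, at 0 h (left) and 1 h (right); filled red points passed edgeR's test and 1.5-fold, black bars are list medians, and the dashed line is at 0. Filled points occur only among the clustered histone genes, with 7 at 0 h and 10 at 1 h. Of all genes tested, 1.56% were called lower and 0.674% higher at 0 h, and 2.47% and 0.182% at 1 h.

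In the NT course with IL-1β, where 26.3% of all genes fell and 23.6% rose, the lists were described by their counts, with no test between them. Of the 18 mitosis genes 16 fell and none rose, with Ccnb1 (cyclin B1) changing by -0.84 and Mki67 by -0.86 at their largest (edgeR adjusted p = 9.6e-16 and 2.84e-12). Of the 32 S phase genes, 4 fell (Ccna2, Ccne2, E2f2 and Rrm2) and 1 rose (Mcm6, a subunit of the replicative helicase). Of the replication-independent histone genes 3 fell (Cenpa, H1f0 and H2afy2), of the processing factors 2 (Lsm11 and Zfp473) and of the chaperones 2 (Asf1b and Hjurp), while the chaperone Daxx rose. The mitosis genes thus fell in the same course as the members, and their part in the histone falls was not tested.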

How the data were processed

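RNA was poly(A) selected and sequenced with the TruSeq protocol; per the labels and the study's methods, the authors aligned reads to GRCm38 with HISAT2 2.1.0 and deposited raw counts per gene from featureCounts (Subread 1.6.3, default settings, so that reads matching several places or several genes were left out). The authors also deposited TPM from Salmon 0.9.1, which shares such reads between genes. No column was left without a sample.

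Groups followed the labels: siRNA and hours of IL-1β, 3 libraries each. Counts were tested with edgeR 4.0.16 (quasi-likelihood; TMM scaling; filterByExpr; R 4.3.3) across all genes, with Benjamini-Hochberg adjustment over all genes tested; a gene was called at adjusted p under 0.05 and over 1.5-fold. Each time point was fitted with its 6 libraries, each IL-1β course with its 18, and the siRNA difference over the course and the interaction with all 36. Printed errors are SE for log2 changes and SD over 3 libraries for levels. CPM were scaled over all 36 libraries. Alternatives were DESeq2 1.42.0, other scalings, no filter, no fold threshold, a replicate block, leaving out each replicate, and limma 3.58.1 on log2(TPM + 1) or log2(TPM + 0.1). The code was tested on simulated data.

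The members, lists and tests were chosen with earlier results of these data known. Named members were the 8 with the highest mean CPM, the 3 with the smallest p at each time among those called, and the 4 largest falls and rises in the NT course; the other members called at a time point are named as well, chosen after their values were seen. The depth of 19337022 to 38304127 counts leaves a floor of 3 counts at 0.0783 to 0.155 CPM. In each of the 36 pairs of replicates the counts differed by more than sampling noise (chi-square per degree of freedom 1.71 to 10.9), so none was treated as a duplicate. Stem-loops, exons and 75-base windows came from GENCODE annotation and transcripts of GRCm38.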

Additional observations from a re-analysis of the deposited data

Results flagged for a closer look

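Hist1h1c and Hist1h2bc were the members whose response to IL-1β differed between the siRNA groups by edgeR's interaction test at any fold, with adjusted p = 0.00181 for Hist1h1c and 0.0288 for Hist1h2bc. They were 2 of the 37 members tested (5.41%), against 3.34% of all genes called with a largest difference below 0, which is near that share. Their largest log2 differences in response were -0.42 for both, below 1.5-fold. Over its alternatives, the adjusted p of Hist1h1c lay between 2.06e-10 and 0.124, and it passed 0.05 in all of them except without replicate 1 (0.124). Hist1h2bc was lost without replicate 1 (0.0884), without replicate 2 (0.45) and without replicate 3 (0.107), and with limma on log2(TPM + 1) (0.0513), on log2(TPM + 0.1) (0.056) and on log2(TPM + 1) with no filter (0.081).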

How the results depend on the processing

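Calls of members between IFT88siRNA and NT were fewer on TPM: limma on log2(TPM + 1), log2(TPM + 0.1) and log2(TPM + 1) with no filter called 4, 4 and 2 at 0 h, 4, 3 and 0 at 1 h, 0, 1 and 0 at 2 h, and 0, 0 and 0 at 4 h, and each called 1 member higher at 24 h. At 0 h these settings tested 56, 56 and 67 members and at 1 h 47, 47 and 66, against 35 and 25 by edgeR. The shares of all genes called under the alternatives in this section are not given. The counts therefore do not show whether the changes were particular to the members. At 2 h the count was 7 with no filter on low counts, 4 with no fold threshold, 5 with the replicate block and 6 with all 36 libraries in 1 model. At 4 h it was 0 with DESeq2, which gave an adjusted p to 5 members and to neither of those called by edgeR, 5 with no filter, 1 with the replicate block and 4 with all 36 libraries, and at 8 h it was 1, 1 and 3 with no filter, the block and all 36 libraries. Leaving out each replicate in turn gave 5 to 6 at 0 h, 6 to 8 at 1 h, 0 to 6 at 2 h, 0 to 4 at 4 h, 0 to 3 at 8 h, 0 to 1 at 24 h, 8 to 16 for the siRNA difference over the course, 21 to 24 and 21 to 26 for the NT and IFT88siRNA courses, and 0 for the different response. The different response had 2 members with no fold threshold and 1 with limma on log2(TPM + 0.1). For Hist1h4m the siRNA difference over the course reversed to 2.76 with limma on log2(TPM + 0.1). Ift88 kept its direction but missed the threshold with limma on log2(TPM + 1) at 1 h (-1.06), 4 h (-1.35) and 8 h (-1.62); DESeq2 gave it no adjusted p at 4 h. Summed as TPM, the members were at 85.7% of NT at 0 h, at 66.8, 59.8 and 71.9% of 0 h in NT at 1, 2 and 24 h, and at 53.9 and 51.4% of 0 h in IFT88siRNA at 1 and 2 h. The cause of these changes was not tested. Over 18 same-numbered pairs of libraries, the correlation of deviations from the group means ran from -0.193 to 0.378 and passed 0.1 in 6, so the numbers were not taken to pair the samples. Counting only members with at least 50% unique windows, an alternative chosen after seeing the data like the single model for named members, gave 7, 7, 2, 2, 0 and 0 calls at the 6 times, 20 in each IL-1β course and 12 for the siRNA difference. The number of members tested under this rule is not given, so these counts do not show whether calls became rarer or more frequent. Low counts limit most members: 43 of the 62 detected lay below 1 CPM.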
